A study of Mus musculus with 12 samples.

Results

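The mammalian circadian clock was followed in mouse liver through 10 of its genes, Arntl, Clock, Per1, Per2, Per3, Cry1, Nr1d1, Nr1d2, Dbp and Tef. They were found by matching the Ensembl identifiers of the count table to gene symbols, and all 10 were present among 50686 genes. Arntl is the gene named Bmal1 in newer annotation. The livers came from FVB/N mice injected through the tail vein, at 6 to 8 weeks of age, with small interfering RNA (siRNA) packed in lipid nanoparticles at 0.5 mg/kg. The siRNA was directed at Eif3m, which encodes a subunit of a translation initiation factor, or was a control of scrambled luciferase sequence. Injections were given at a rate of 1 in 5 days over 13 or 9 days. The 4 groups, with 3 libraries each and 12 in all, were Eif3m siRNA at day 13, control siRNA at day 13, Eif3m siRNA at day 9 and control siRNA at day 9. Every mouse, controls included, had thus received nanoparticles and an siRNA, and no uninjected liver was analysed here. Delivery was through the blood, so no promoter confines the knockdown to 1 cell type. Nothing in the labels says that each library came from its own animal, and the p-values therefore reflect only how much these libraries varied, which may be technical. The labels also give neither the hour of collection nor the sex of the mice.

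The clock is a feedback loop of transcription. The proteins of Arntl and Clock form a dimer that binds E-box sequences and activates the Per, Cry, Nr1d and PAR bZIP genes, and the PER and CRY proteins return to block that dimer. The REV-ERB receptors made from Nr1d1 and Nr1d2 repress Arntl through RORE sequences, while DBP and TEF activate genes with D-box sequences. In mouse liver these transcripts rise and fall every day, and those of Arntl and of Dbp run in opposite phase, so that their levels depend on the hour at which a liver is taken.

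The letters of these elements were looked for in windows of 300 bases, from 250 before to 50 after each annotated start, taken from RefSeq on GRCm38.p6. There were 14 such windows for 9 of the genes, and Per2 had none. Both strands were searched for the E-box CACGTG, the E-prime box CACGTT, the D-box TTATGTAA, the RORE in its forms TAGGTCA and TGGGTCA, and the cAMP element TGACGTCA. The letters CACGTG were held by 7.15% of all 32851 windows, CACGTT by 4.68%, TTATGTAA by 0.938%, TAGGTCA by 2.61%, TGGGTCA by 3.98% and TGACGTCA by 1.79%. Per1, Cry1 and Tef held CACGTG, Cry1 and Nr1d1 held CACGTT on the other strand, Per3 held TTATGTAA at 2 places and Arntl held TAGGTCA. No window of these genes held TGACGTCA. Clock, Nr1d2 and Dbp held no match in any window, nor did the other window of Per1 and of Arntl. The 4 windows below, of Per1, Cry1, Per3 and Arntl, are among those with a match. They run 5′ to 3′ along the gene, with the matched letters in capitals. In order they are chr11:69098699-69098998 on the plus strand, chr10:85185005-85185304 on the minus strand, chr4:151044616-151044915 on the minus strand and chr7:113207261-113207560 on the plus strand.
Per1: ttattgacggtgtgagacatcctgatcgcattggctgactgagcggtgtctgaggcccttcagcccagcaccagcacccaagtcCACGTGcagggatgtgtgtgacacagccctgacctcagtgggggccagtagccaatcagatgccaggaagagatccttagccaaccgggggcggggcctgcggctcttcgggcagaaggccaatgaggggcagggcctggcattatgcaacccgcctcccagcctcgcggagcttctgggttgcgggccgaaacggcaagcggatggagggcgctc
Cry1: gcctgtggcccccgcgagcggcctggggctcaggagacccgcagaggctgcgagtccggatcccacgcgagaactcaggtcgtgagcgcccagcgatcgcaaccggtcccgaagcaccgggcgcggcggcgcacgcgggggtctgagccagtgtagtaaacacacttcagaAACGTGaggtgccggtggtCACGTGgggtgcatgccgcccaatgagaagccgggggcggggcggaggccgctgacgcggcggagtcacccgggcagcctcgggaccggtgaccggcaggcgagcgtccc
Per3: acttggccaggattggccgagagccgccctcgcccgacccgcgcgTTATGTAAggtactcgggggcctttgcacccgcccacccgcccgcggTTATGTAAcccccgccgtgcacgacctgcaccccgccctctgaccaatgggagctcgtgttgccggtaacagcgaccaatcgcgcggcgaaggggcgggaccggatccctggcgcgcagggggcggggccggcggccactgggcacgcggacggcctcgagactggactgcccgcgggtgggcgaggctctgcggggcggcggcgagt
Arntl: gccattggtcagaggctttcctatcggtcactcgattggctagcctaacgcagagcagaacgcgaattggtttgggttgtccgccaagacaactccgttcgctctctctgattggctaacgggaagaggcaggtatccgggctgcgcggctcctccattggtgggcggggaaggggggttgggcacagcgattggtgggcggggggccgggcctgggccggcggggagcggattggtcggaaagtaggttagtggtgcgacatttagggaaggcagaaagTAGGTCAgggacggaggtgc
The E-box of Per1 begins 166 bases before the start, and that of Cry1 60 bases before it, with the E-prime box of Cry1 on the other strand 79 bases before it. The D-boxes of Per3 begin 205 and 158 bases before the start. The RORE letters of Arntl begin 31 bases after it. These matches describe the sequence and do not show that a factor was bound in these livers.

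Levels are counts-per-million values (CPM), with library sizes adjusted by TMM, the trimmed mean of M values. Eif3m itself had 2.52, 2.41 and 2.19 CPM in day 13 Eif3m-siRNA livers, against 39.8, 38.1 and 31.2 CPM in day 13 controls. At day 9 it had 4.88, 4.78 and 4.71 CPM in Eif3m-siRNA livers, against 45.1, 44.1 and 45.4 CPM in controls. The log2 fold change was -3.94 (SE 0.14) at day 13, with an adjusted p of 2.66e-09, and -3.23 (SE 0.11) at day 9, with an adjusted p of 1.92e-09, in edgeR's quasi-likelihood test. Day 13 libraries held 7650269 to 9630027 counts and day 9 libraries 38783564 to 54538581. Per the labels, they were also made in different ways, with Neoprep at day 13 and KAPA mRNA capture at day 9. Effects of day, library preparation, depth and hour of collection cannot be told apart between the days, whereas the siRNA comparison was made within a day and within a preparation. The 7 hepatocyte markers, Alb and Apoa1 among them, summed to at least 87570 CPM in every library. In whole liver, fewer cells of a type and less RNA per cell cannot be told apart. All 10 clock genes passed the filter on low counts. They rested on 27 to 206 counts per library for Arntl and on 370 to 11388 for Tef.

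The plainest change was that of Per1. It was lower after Eif3m siRNA at day 13, it was not lower at day 9, and the 2 responses differed. Of the 10 genes, 1 fell and 0 rose at day 13, beside 23.7% of all 14248 genes tested that changed at an adjusted p under 0.05 (12.8% higher, 10.9% lower). At day 9, 0 of 10 changed, beside 12.8% of all genes (5.94% higher, 6.84% lower). At that day 2 had an unadjusted p under 0.05, and DESeq2 and limma-voom each called those 2, Per1 and Nr1d1. The difference between the days was called for 1 of 10, Per1, beside 2.55% of all genes (0.898% higher, 1.66% lower). The median log2 fold change of the 10 was -0.11 at day 13 and 0.26 at day 9, against 0 and 0.01 over all genes. Between the controls, 2 of 10 were higher and 3 lower at day 13 than at day 9, beside 22.5% of all genes that changed (11.0% higher, 11.5% lower). The 4 comparisons share libraries, so their values are given side by side and not as independent evidence of each other.

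**Figure D1:**
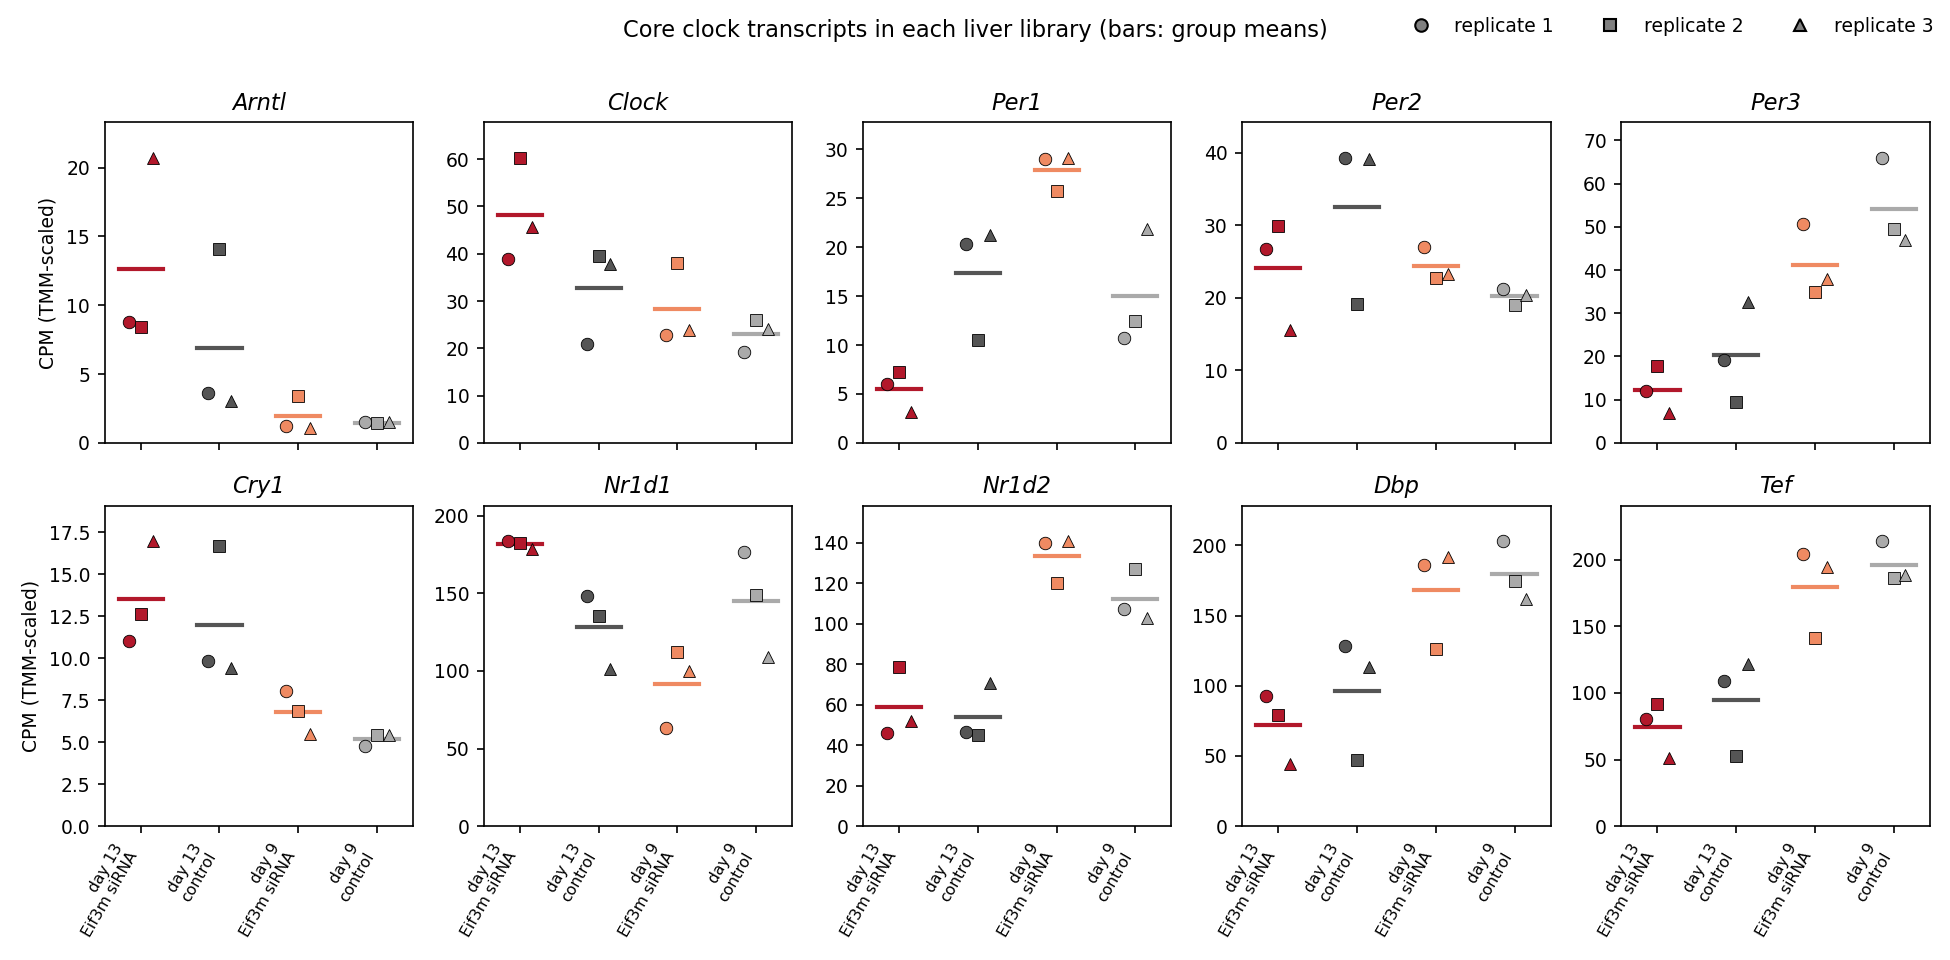
CPM, scaled with TMM factors, of the 10 clock genes in each of the 12 libraries (points, shaped by replicate) with the mean of each group (bars). Per1 is lowest in the day 13 Eif3m-siRNA livers (3.18 to 7.23 CPM) and highest in the day 9 Eif3m-siRNA livers (25.7 to 29.1 CPM).

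Set per kilobase of merged exon, the genes spanned a wide range of levels. In day 13 Eif3m-siRNA livers the order was Nr1d1 (59.0 ± 0.843 CPM per kb), Dbp (24.1 ± 8.29), Nr1d2 (10.9 ± 3.19), Tef (9.48 ± 2.67), Per2 (4.11 ± 1.29), Cry1 (4.06 ± 0.919), Clock (3.52 ± 0.796), Arntl (1.68 ± 0.927), Per3 (1.28 ± 0.557) and Per1 (0.972 ± 0.370), with SD over n = 3. In that order the neighbours Nr1d2 and Tef, then Per2, Cry1 and Clock, then Arntl, Per3 and Per1, lay within their SDs of each other. In day 9 controls it was Dbp (60.03 ± 7.04), Nr1d1 (47.1 ± 11.1), Tef (25.0 ± 1.94), Nr1d2 (20.8 ± 2.42), Per3 (5.64 ± 1.07), Per2 (3.45 ± 0.195), Per1 (2.67 ± 1.06), Clock (1.68 ± 0.258), Cry1 (1.56 ± 0.110) and Arntl (0.196 ± 0.00374). There Dbp and Nr1d1, Tef and Nr1d2, and Per2, Per1, Clock and Cry1 lay within their SDs of the next. The order from high to low was Nr1d1, Dbp, Tef, Nr1d2, Per2, Cry1, Per1, Clock, Per3 and Arntl in day 13 controls, between 41.7 ± 7.95 and 0.921 ± 0.828 CPM per kb. In day 9 Eif3m-siRNA livers it was Dbp, Nr1d1, Nr1d2, Tef, Per1, Per3, Per2, Clock, Cry1 and Arntl, between 56.2 ± 12.1 and 0.255 ± 0.175 CPM per kb. Per1 thus stood last of 10 in day 13 Eif3m-siRNA livers and seventh in day 13 controls, and in the fifth place in day 9 Eif3m-siRNA livers and seventh in day 9 controls. Arntl stood eighth in day 13 Eif3m-siRNA livers and last in the other groups.

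Of the activators, Arntl encodes BMAL1, the partner of CLOCK in the activating dimer (ENSMUSG00000055116, chr7:113207465-113314126, plus strand, mm10). Its transcript had 8.81, 8.44 and 20.7 CPM in day 13 Eif3m-siRNA livers, against 3.63, 14.1 and 3.03 CPM in day 13 controls. Day 9 values of Arntl were 1.20, 3.43 and 1.12 CPM in Eif3m-siRNA livers, against 1.49, 1.45 and 1.496 CPM in controls. Replicate 3 of the day 13 Eif3m-siRNA livers, replicate 2 of the day 13 controls and replicate 2 of the day 9 Eif3m-siRNA livers each stood far above the other two of their group, and the siRNA groups overlapped on both days. Arntl had a log2 fold change of 0.91 at day 13 (95% interval -0.59 to 2.40, adjusted p 0.354) and 0.39 at day 9 (-1.07 to 1.85, adjusted p 0.747). Without replicate 2 of the day 13 controls, the day 13 value was 1.94 with an adjusted p of 0.0448. Over the fits that left out 1 day 13 library it ranged from 0.33 to 1.94, with adjusted p-values of up to 0.798. Without replicate 2 of the day 9 Eif3m-siRNA livers, the day 9 value was -0.35, with an adjusted p of 0.798. Between the controls Arntl averaged 6.93 ± 6.23 CPM at day 13 and 1.48 ± 0.0281 CPM at day 9 (SD, n = 3 each), and every day 13 control was above every day 9 control, as for 17.5% of all genes. That log2 fold change was 2.19 (SE 0.68), with an adjusted p of 0.0447. The call was lost in 5 of the 6 fits that left out 1 control library, and the value was 1.15, with an adjusted p of 0.244, without replicate 2 of the day 13 controls.

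Clock encodes the partner of BMAL1 in the dimer (ENSMUSG00000029238, chr5:76209868-76304792, minus strand). It had 38.9, 60.3 and 45.7 CPM in day 13 Eif3m-siRNA livers, against 20.9, 39.6 and 37.9 CPM in day 13 controls. Day 9 values of Clock were 22.9, 37.9 and 24.0 CPM in Eif3m-siRNA livers, against 19.1, 26.0 and 24.0 CPM in controls. The groups overlapped on both days, at day 13 only through the lowest Eif3m-siRNA library. Clock had a log2 fold change of 0.56 at day 13 (-0.05 to 1.17, adjusted p 0.152) and 0.29 at day 9 (-0.29 to 0.88, adjusted p 0.500). Its controls differed by 0.51 between day 13 and day 9, with an adjusted p of 0.188. In replicate 2 of the day 9 Eif3m-siRNA livers Clock was the highest of its group, as Arntl was.

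Among the repressors, Per1 encodes a period protein whose gene also answers quickly to hormones and feeding (ENSMUSG00000020893, chr11:69095217-69109960, plus strand). Its E-box is shown above. It had 6.01, 7.23 and 3.18 CPM in day 13 Eif3m-siRNA livers, against 20.3, 10.54 and 21.2 CPM in day 13 controls. Each of the Eif3m-siRNA livers was below every control, and the nearest values were 7.23 CPM in an Eif3m-siRNA liver and 10.54 CPM in control replicate 2. Per1 had a log2 fold change of -1.67 (SE 0.37; -2.52 to -0.82), which is 0.315 of the control level, with an adjusted p of 0.00682. An exact permutation test of the 3 against 3 gave p = 0.1, the smallest it can give. Groups that did not overlap, with Eif3m siRNA lower, were found for 16.0% of all genes at day 13.

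At day 9 Per1 had 29.0, 25.7 and 29.1 CPM in Eif3m-siRNA livers, against 10.7, 12.5 and 21.8 CPM in controls. All 3 Eif3m-siRNA livers were above every control, as for 22.5% of all genes, with control replicate 3 the nearest. The log2 fold change was 0.90 (SE 0.30; 0.21 to 1.59), with an adjusted p of 0.0725 in edgeR. DESeq2 gave 0.89 with an adjusted p of 0.0338, and limma-voom 0.96 with an adjusted p of 0.0209. Without control replicate 3, edgeR's value was 1.27 with an adjusted p of 0.0195. Over the fits that left out 1 day 9 library it ranged from 0.71 to 1.27, with adjusted p-values of up to 0.196. Of 9 other settings, 2 called it, and adjusted p-values went up to 0.242. The effect at day 13 minus that at day 9 was -2.56 (SE 0.47; -3.66 to -1.47), with an adjusted p of 0.0199. The adjusted p of this difference was 0.0703 with no filter on low counts, and 0.0511 and 0.0519 without day 13 control replicate 1 and replicate 3. Control livers had 17.4 ± 5.93 CPM at day 13 and 15.01 ± 5.98 CPM at day 9, a log2 fold change of 0.22 (-0.51 to 0.95, adjusted p 0.663). The opposite signs of the siRNA response thus stood on controls whose levels differed by less than their spread.

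**Figure D2:**
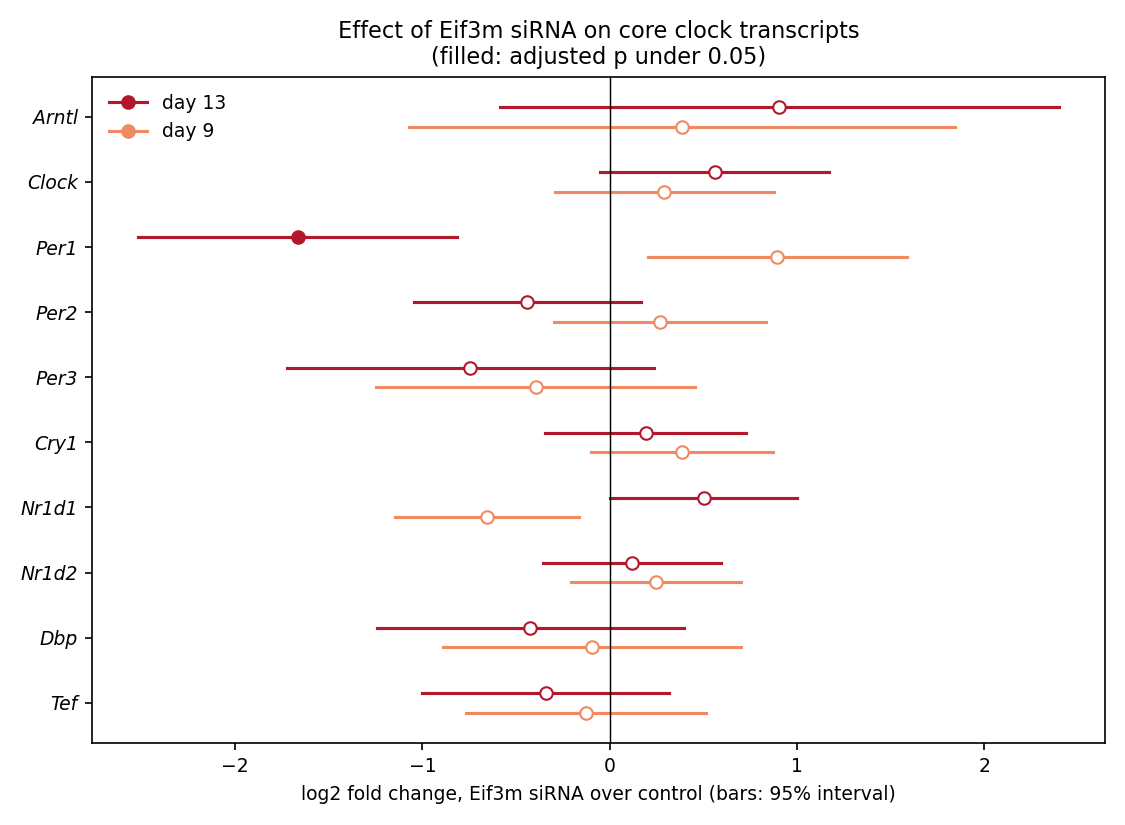
Log2 fold change of each clock gene, Eif3m siRNA over control, at day 13 (upper of each pair) and day 9 (lower), with bars for the 95% interval from the standard error and 8 residual degrees of freedom. The filled point is Per1 at day 13 (-1.67), which lies on the other side of 0 from Per1 at day 9 (0.90), and Nr1d1 is the other gene whose points lie on opposite sides with intervals that exclude 0.

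Per2, a second period gene, is induced by serum and glucocorticoid signals as well as by the clock (ENSMUSG00000055866, chr1:91415982-91459324, minus strand). It had 26.7, 30.0 and 15.6 CPM in day 13 Eif3m-siRNA livers, against 39.3, 19.1 and 39.2 CPM in day 13 controls. Each group held 1 low library, replicate 3 of the Eif3m-siRNA livers and replicate 2 of the controls, and the groups overlapped. The log2 fold change was -0.44 (-1.05 to 0.17, adjusted p 0.257). It was -0.70, with an adjusted p of 0.0324, without control replicate 2. Over the fits that left out 1 day 13 library it ranged from -0.70 to -0.21, with adjusted p-values of up to 0.612. At day 9 Per2 had 27.1, 22.7 and 23.3 CPM in Eif3m-siRNA livers, against 21.2, 19.0 and 20.4 CPM in controls. Those groups did not overlap, as for 22.5% of all genes at day 9 with Eif3m siRNA higher, and the log2 fold change was 0.27 (adjusted p 0.523). The difference between the days was -0.71 (-1.54 to 0.12, adjusted p 0.325). The controls differed by 0.69 between day 13 and day 9, with an adjusted p of 0.0692. Without day 13 control replicate 2 that value was 0.95, with an adjusted p of 0.0086. Over the fits that left out 1 control library it ranged from 0.53 to 0.95, with adjusted p-values of up to 0.232.

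Per3 encodes the period protein least needed for the rhythm itself (ENSMUSG00000028957, chr4:151003652-151044665, minus strand). It had 12.03, 17.7 and 7.01 CPM in day 13 Eif3m-siRNA livers, against 19.2, 9.55 and 32.5 CPM in day 13 controls. Day 9 values of Per3 were 50.7, 34.8 and 38.0 CPM in Eif3m-siRNA livers, against 66.0, 49.5 and 47.0 CPM in controls. The siRNA groups overlapped on both days. Log2 fold changes of -0.74 at day 13 (-1.72 to 0.24, adjusted p 0.241) and -0.40 at day 9 (-1.25 to 0.46, adjusted p 0.540) did not pass the test. Per3 was lower in controls of day 13 than in those of day 9, by a log2 fold change of -1.39 (SE 0.40) with an adjusted p of 0.0301. No control of day 13 reached the lowest control of day 9, as for 20.8% of all genes. That call was lost, with adjusted p-values of 0.055 to 0.0926, when the control libraries were fitted alone, when no filter was used, and when any 1 of 4 control libraries was left out.

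Cry1 encodes a cryptochrome, the other partner of the repressing complex, and its transcript peaks late among the E-box genes (ENSMUSG00000020038, chr10:85131700-85185064, minus strand). It had 11.1, 12.6 and 17.0 CPM in day 13 Eif3m-siRNA livers, against 9.82, 16.7 and 9.42 CPM in day 13 controls. Day 9 values of Cry1 were 8.07, 6.85 and 5.47 CPM in Eif3m-siRNA livers, against 4.78, 5.41 and 5.43 CPM in controls. The groups overlapped at day 13 and lay just apart at day 9, as for 22.5% of all genes with Eif3m siRNA higher. Cry1 had a log2 fold change of 0.19 at day 13 (-0.34 to 0.73, adjusted p 0.599) and 0.38 at day 9 (-0.10 to 0.87, adjusted p 0.260). Cry1 was higher in day 13 controls than in day 9 controls, 11.97 ± 4.07 against 5.21 ± 0.368 CPM (SD, n = 3 each). The log2 fold change was 1.19 (SE 0.23), with an adjusted p of 0.00262, and this call held in every alternative run, with adjusted p-values of up to 0.0163 when 1 control library was left out.

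Of the REV-ERB genes, Nr1d1 encodes the main repressor of Arntl, a nuclear receptor that binds heme (ENSMUSG00000020889, chr11:98767932-98775333, minus strand). It had 183.5, 182.2 and 178.5 CPM in day 13 Eif3m-siRNA livers, against 148.2, 135.4 and 100.9 CPM in day 13 controls. Day 9 values of Nr1d1 were 63.5, 112.2 and 99.9 CPM in Eif3m-siRNA livers, against 176.5, 149.0 and 108.9 CPM in controls. All 3 Eif3m-siRNA livers of day 13 were above every control, as for 17.2% of all genes, and the 3 lay within 1.03 times of each other. The day 9 groups overlapped only through 1 library of each. Nr1d1 had a log2 fold change of 0.50 at day 13 (0.00 to 1.00, adjusted p 0.112) and -0.66 at day 9 (-1.15 to -0.17, adjusted p 0.0613). DESeq2 gave -0.67 at day 9, with an adjusted p of 0.0227, and limma-voom -0.67 with an adjusted p of 0.0483. The day 13 effect minus the day 9 effect was 1.16 (SE 0.30; 0.46 to 1.86), with an adjusted p of 0.0606 in edgeR and of 0.00913 in DESeq2. Without day 9 control replicate 3, edgeR gave -0.82 at day 9 (adjusted p 0.0358) and 1.32 for the difference (adjusted p 0.0431). Other fits that left out 1 library gave adjusted p-values of up to 0.215 at day 9 and 0.139 for the difference. The controls differed by -0.18 between day 13 and day 9 (-0.67 to 0.32, adjusted p 0.591). The exons of Nr1d1 share 263 bases, 8.55% of their length, with Thra on the opposite strand, which had 49 to 605 counts per library. The strand setting of the counting is not given in the sources used here, so the assignment of reads there is uncertain.

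Nr1d2 encodes the second REV-ERB (ENSMUSG00000021775, chr14:18204054-18239127, minus strand). It had 46.0, 78.5 and 52.0 CPM in day 13 Eif3m-siRNA livers, against 46.7, 45.2 and 70.6 CPM in day 13 controls. In day 9 livers Nr1d2 had 139.9, 120.0 and 140.8 CPM in Eif3m-siRNA livers, against 107.1, 127.3 and 102.8 CPM in controls. Here the siRNA groups overlapped on both days and the large step was between the days. Log2 fold changes were 0.12 at day 13 (-0.35 to 0.59, adjusted p 0.725) and 0.25 at day 9 (-0.20 to 0.70, adjusted p 0.454). Between the controls, day 13 over day 9, the log2 fold change was -1.05 (SE 0.20), with an adjusted p of 0.00302, and this call held in every alternative run. The gap between the paralogs in their siRNA response was not tested.

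Of the PAR bZIP genes, Dbp is a direct E-box target with one of the strongest daily rhythms in liver (ENSMUSG00000059824, chr7:45705088-45710203, plus strand). It had 92.5, 79.5 and 44.5 CPM in day 13 Eif3m-siRNA livers, against 128.4, 47.3 and 113.6 CPM in day 13 controls. In day 9 livers Dbp had 186.3, 126.3 and 191.7 CPM in Eif3m-siRNA livers, against 202.9, 174.3 and 161.8 CPM in controls. The lowest libraries were replicate 3, replicate 2 and replicate 2 of the first 3 of these groups, the very libraries with the highest Arntl, and the siRNA groups overlapped on both days. Log2 fold changes were -0.42 at day 13 (-1.24 to 0.40, adjusted p 0.436) and -0.10 at day 9 (-0.89 to 0.70, adjusted p 0.895). Every day 13 control was below every day 9 control, as for 20.8% of all genes, and that log2 fold change was -0.90 with an adjusted p of 0.0931. Dbp shares 539 exon bases, 18.0% of its exon length, with Sphk2 on the opposite strand, which had 260 to 2017 counts per library, so its level is uncertain to that extent.

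Tef, the last of the 10, encodes a factor close to DBP that binds the same D-boxes (ENSMUSG00000022389, chr15:81802421-81826863, plus strand). It had 80.4, 92.0 and 51.3 CPM in day 13 Eif3m-siRNA livers, against 108.9, 52.7 and 121.5 CPM in day 13 controls. In day 9 livers Tef had 204.3, 140.9 and 194.2 CPM in Eif3m-siRNA livers, against 213.9, 186.6 and 188.5 CPM in controls. It followed the same pattern over libraries as Dbp. Log2 fold changes were -0.34 at day 13 (-1.004 to 0.32, adjusted p 0.431) and -0.13 at day 9 (-0.77 to 0.51, adjusted p 0.817). Tef was lower in day 13 controls than in day 9 controls, 94.4 ± 36.6 against 196.3 ± 15.2 CPM (SD, n = 3 each). The log2 fold change was -1.05 (SE 0.28), with an adjusted p of 0.0214. It was -0.98, with an adjusted p of 0.0575, without day 9 control replicate 1, and -1.10, with an adjusted p of 0.0739, with no filter.

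**Figure D3:**
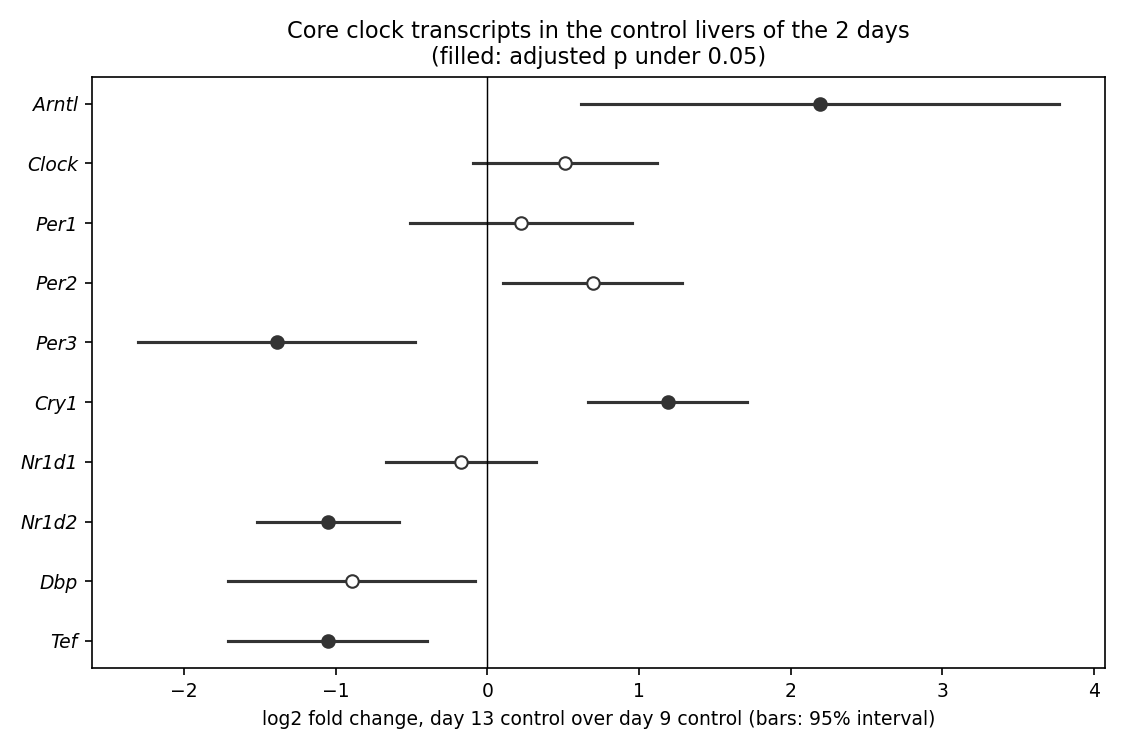
Log2 fold change of each clock gene between the control livers, day 13 over day 9, with bars for the 95% interval and filled points at an adjusted p under 0.05. Arntl (2.19) and Cry1 (1.19) lie above 0, and Per3 (-1.39), Nr1d2 (-1.05) and Tef (-1.05) lie below it.

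The control livers of the 2 days thus differed in 5 of the 10 genes, with no Eif3m siRNA in either. Arntl and Cry1 were higher at day 13, Per3, Nr1d2 and Tef were lower, and Clock, Per1 and Nr1d1 had intervals that included 0. Only the calls of Cry1 and Nr1d2 held in every alternative run. Per2 (0.10 to 1.28) and Dbp (-1.71 to -0.08) had intervals that excluded 0 without passing the adjusted test in edgeR, and DESeq2 called both, with adjusted p-values of 0.0359 and 0.0311. The log2 ratio of Arntl to Dbp, which cancels library size, put the livers on 1 scale. At day 13 it was -3.39, -3.24 and -1.10 in Eif3m-siRNA livers, against -5.14, -1.75 and -5.23 in controls. At day 9 it was -7.28, -5.20 and -7.43 in Eif3m-siRNA livers, against -7.09, -6.91 and -6.76 in controls. The day 13 controls had a mean of -4.04 and an SD of 1.99, and the day 9 controls a mean of -6.92 and an SD of 0.166 (n = 3 each). The 2 day 13 controls near -5.2 lay between the Eif3m-siRNA livers of that day and all but 1 of the day 9 libraries. Whether the ratio follows the hour of collection was not tested, since no hour is given in the labels. Library preparation differed between the days as well, and its part in the ratio was not tested.

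**Figure D4:**
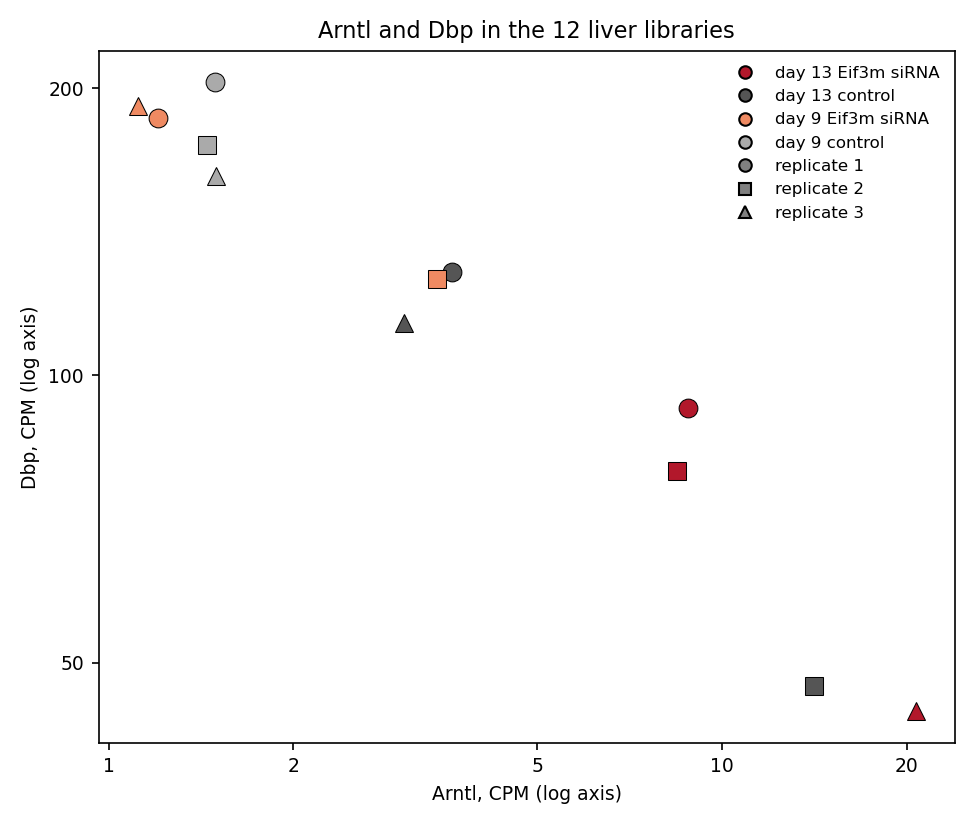
Arntl (x axis) and Dbp (y axis) in CPM, on log axes, in each of the 12 libraries, coloured by group and shaped by replicate. Libraries run from 1.12 CPM of Arntl with 191.7 CPM of Dbp at the upper left to 20.7 CPM of Arntl with 44.5 CPM of Dbp at the lower right, both ends being Eif3m-siRNA livers.

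Inside each group but the day 9 controls, the library highest in Arntl was the lowest in Dbp and Tef. In day 9 controls Arntl ranged only from 1.445 to 1.496 CPM, while Dbp ranged from 161.8 to 202.9 CPM. Relative to its own group's mean log2 level, Arntl was 0.84 higher in replicate 3 of the day 13 Eif3m-siRNA livers, 1.38 higher in replicate 2 of the day 13 controls and 1.01 higher in replicate 2 of the day 9 Eif3m-siRNA livers. In those 3 libraries, in the same order, Dbp was at -0.63, -0.90 and -0.39, Tef at -0.50, -0.75 and -0.33, and Per3 at -0.70, -0.92 and -0.22. Per1, Per2, Per3, Nr1d2, Dbp and Tef were below their group mean in all 3, and Arntl and Cry1 were above it. The SD of log2 CPM of Arntl was above that of 89.6% of all genes in day 13 Eif3m-siRNA livers and 94.97% in day 13 controls, and of 99.0% in day 9 Eif3m-siRNA livers against 3.76% in day 9 controls.

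Over the 12 libraries, with group means removed, Arntl and Tef had a Pearson r of -0.962 (exact permutation within groups, p = 0.00926) and a Spearman rho of -0.902 (p = 0.0185). For Arntl and Dbp the r was -0.940 (p = 0.0316) and the rho -0.867 (p = 0.0208). Of the 9 relations of Arntl with the other genes, those with Tef, Per3 (r -0.827) and Per1 (r -0.726) had a Benjamini-Hochberg adjusted p of 0.044 for r, and those with Dbp and Per2 (r -0.866) had 0.0569. By rho the smallest adjusted p of the 9 was 0.0625. Without the 2 libraries farthest from the median of Arntl, replicate 2 of the day 13 controls and replicate 2 of the day 9 Eif3m-siRNA livers, r was -0.944 for Tef, -0.901 for Dbp, -0.781 for Per3 and -0.696 for Per1. Group means were not taken anew for that, so the libraries left kept an offset set by those dropped. Those r values therefore cannot show whether the relations hold without the 2 libraries. Within day 13 alone r was -0.994 for Tef, -0.972 for Dbp, -0.934 for Per3 and -0.953 for Per1. Within day 9 alone it was -0.914 for Tef and -0.894 for Dbp, but -0.456 for Per3 and -0.174 for Per1. Exact permutation within groups gave p of 0.278, 0.139, 0.583 and 0.194 for these within day 9. Within day 13 it gave 0.0278 for Tef, Per3 and Per1 and 0.111 for Dbp, the smallest possible being 0.028. Arntl lay 0.0129, -0.0303 and 0.0174 from its mean in day 9 controls. The day 9 values thus rested mostly on the Eif3m-siRNA livers, where replicate 2 stood apart. Nr1d1, the repressor of Arntl, had an r of 0.338 with it (exact permutation p = 0.339) and Clock one of 0.463 (exact permutation p = 0.301). Dbp and Tef went together, with an r of 0.955, given as a description.

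**Figure D5:**
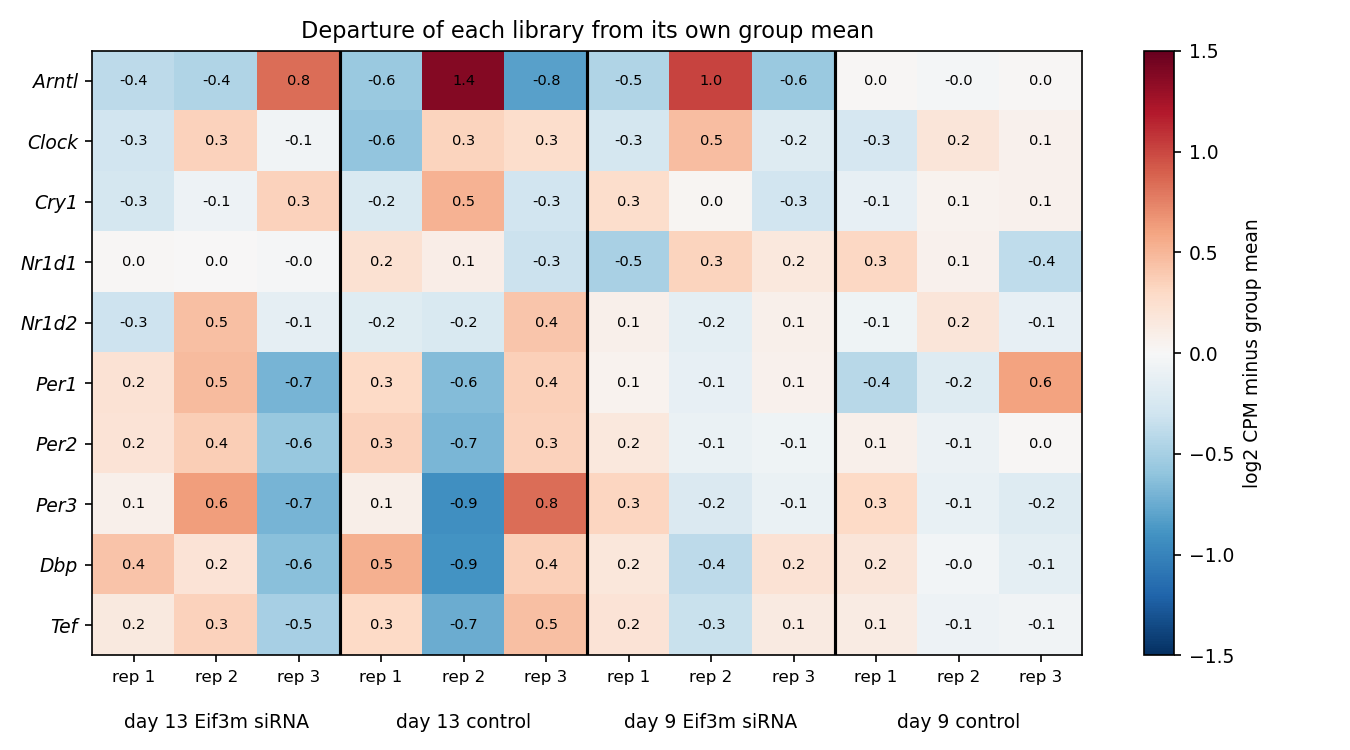
Log2 CPM of each clock gene in each library minus the mean of that library's group, with positive values in red and negative ones in blue. Replicate 3 of the day 13 Eif3m-siRNA livers, replicate 2 of the day 13 controls and replicate 2 of the day 9 Eif3m-siRNA livers are red for Arntl and blue for Dbp and Tef, and the day 9 controls are the palest for Arntl.

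The genes most like Arntl and Dbp over libraries were sought among the 9302 other genes that averaged 5 CPM or more, by Pearson r of log2 CPM with group means removed, over 12 libraries, as a description. For Arntl they were St5 (r 0.969), Arsg, which encodes a sulfatase (0.952), and Insig2, which encodes a membrane protein that holds back sterol synthesis (0.947). For Dbp they were Ngef (0.969), Dnajc22 (0.954) and Slc35a4 (0.945).

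Among 16 other clock genes, 15 were tested. Their counts stand beside 23.7% of all genes called at day 13, 12.8% at day 9 and 2.55% for the difference. At day 13, 2 were higher and 2 lower after Eif3m siRNA, with a median log2 fold change of 0.01 against 0 over all genes. Bhlhe40, a repressor that competes for E-boxes, fell by 0.91 (adjusted p 0.0364). Rora, which encodes a nuclear receptor that opposes the REV-ERBs, rose by 0.79 (adjusted p 0.0259), and Timeless rose by 1.03 (adjusted p 0.0083). Calls for Bhlhe40 and Rora were lost with day 13 fitted alone (adjusted p 0.077 and 0.0735), with no filter (0.135 and 0.0593) and in 3 fits each that left out 1 library (up to 0.134 and 0.107). At day 9, 0 rose and 1 fell, with a median of -0.09 against 0.01. The difference between the days was called for 0 of 15 by edgeR's test, with 1 at an unadjusted p under 0.05.

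Between the controls, 1 of the 15 was higher and 5 lower at day 13, beside 11.0% and 11.5% of all genes. The median of the 15 was -0.37 against -0.02 over all genes. Cry2, the second cryptochrome gene, had a log2 fold change of -0.52 (adjusted p 0.0131). Csnk1e, a kinase of the PER proteins, had -0.58 (adjusted p 0.0267). Both calls were lost in at least 1 fit that left out 1 control library, with adjusted p-values of up to 0.054 for Cry2 and 0.0823 for Csnk1e. Npas2, the paralog of Clock, did not pass the filter and is named after its values were seen. It had 3, 3 and 23 counts in day 13 Eif3m-siRNA livers, against 2, 12 and 1 in day 13 controls. At day 9 it had 3, 14 and 6 counts in Eif3m-siRNA livers, against 8, 8 and 6 in controls. Its highest library in each of the first 3 groups was also the highest in Arntl.

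Of 18 clock-controlled liver genes, 0 rose and 8 fell after Eif3m siRNA at day 13, beside 12.8% and 10.9% of all genes. Their median log2 fold change was -0.92 against 0 over all genes. Those that fell include genes of drug and steroid metabolism that PAR bZIP factors are known to activate. Cyp2b10, a cytochrome P450 induced by drugs, had -2.55 (adjusted p 6.79e-06), Cyp2a5, a coumarin hydroxylase, -2.01 (adjusted p 0.000307), Cyp2a4, a steroid hydroxylase, -0.86 (adjusted p 0.00501) and Upp2, a uridine phosphorylase, -0.99 (adjusted p 0.00621). At day 9, 0 rose and 3 fell, beside 5.94% and 6.84% of all genes, with a median of -0.22 against 0.01. Cyp2b10 had -2.36 (adjusted p 1.43e-05), Cyp2a5 -1.33 (adjusted p 0.00759) and Nr1i3, the drug receptor CAR, -1.07 (adjusted p 0.0273). Dbp and Tef themselves did not pass the test on either day, and their part in these falls, or that of Nr1i3, was not tested. The Nr1i3 call at day 9 was lost when any 1 of 4 libraries was left out, and the value was -0.62 (adjusted p 0.0735) without control replicate 1. That call was also lost with no filter (adjusted p 0.0908) and with day 9 fitted alone (0.0702). Between the controls 3 were higher and 2 lower at day 13, beside 11.0% and 11.5% of all genes. Upp2 had -1.27 (adjusted p 0.00161), Elovl3, a fatty acid elongase, -1.07 (adjusted p 0.029), Cyp2a4 0.69 (adjusted p 0.019) and Alas1, the first enzyme of heme synthesis, 1.91 (adjusted p 0.0269). Calls for Cyp2a4, Alas1 and Elovl3 between the controls were lost when any 1 of several control libraries was left out, with adjusted p-values of up to 0.0914.

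Per1 also responds to glucocorticoid, so 14 glucocorticoid-responsive genes were set beside it. After Eif3m siRNA 3 rose and 3 fell at day 13, beside 12.8% and 10.9% of all genes. The median log2 fold change of the 14 was -0.41 against 0 over all genes. Sgk1, a kinase gene, had 1.25 (adjusted p 0.00054) and Klf9 0.99 (adjusted p 0.00419), while Lcn2, an acute-phase protein gene, had -3.49 (adjusted p 8.71e-05) and Ddit4, an inhibitor of mTOR signalling, -1.20 (adjusted p 0.00273). At day 9, 2 rose and 3 fell, beside 5.94% and 6.84% of all genes, with a median of 0.39 against 0.01. Pck1, a gluconeogenic enzyme, had 1.499 (adjusted p 0.000816) and Sgk1 1.19 (adjusted p 0.00138). The metallothioneins Mt2 and Mt1 had -1.97 (adjusted p 0.0216) and -2.00 (adjusted p 0.0244), and both lost the call with no filter and when any 1 of 3 libraries, for Mt2, or any 1 of 4, for Mt1, was left out. Between the controls 3 were higher and 3 lower at day 13, beside 11.0% and 11.5% of all genes. Tsc22d3 had 1.14 (adjusted p 0.000896), Lcn2 1.58 (adjusted p 0.00573), Ddit4 0.85 (adjusted p 0.00988) and Klf9 -1.40 (adjusted p 0.000533).

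Body temperature and stress also reach the clock, and 9 genes of cold and heat response were followed for that reason. After Eif3m siRNA 3 rose and 3 fell at day 13, beside 12.8% and 10.9% of all genes. At day 9, 5 rose and 0 fell, beside 5.94% and 6.84%. The medians of the 9 were 0.12 at day 13 and 0.51 at day 9, against 0 and 0.01 over all genes. Hspa1b, an inducible HSP70 gene, had 16.3 ± 3.75 CPM in day 13 Eif3m-siRNA livers, against 43.2 ± 13.6 CPM in day 13 controls (SD, n = 3 each; log2 fold change -1.42, adjusted p 0.00142). At day 9 it had 12.3 ± 3.41 CPM in Eif3m-siRNA livers, against 4.76 ± 0.269 CPM in controls (1.37, adjusted p 0.00336). Its near-identical copy Hspa1a had log2 fold changes of -1.77 at day 13 (adjusted p 0.00603) and 1.60 at day 9 (adjusted p 0.00928), and reads may be split between the copies. The day 9 call of Hspa1a was lost with day 9 counts thinned to the day 13 depth (1.33, adjusted p 0.114). Dnajb1, a co-chaperone, had -1.01 at day 13 (adjusted p 0.000873), and Rbm3, which cold induces, 0.94 (adjusted p 0.0002). At day 9 Hspa8 had 0.71 (adjusted p 0.00148) and Hsph1 0.62 (adjusted p 0.00519). Hspa8, Hsph1 and Rbm3 were each called higher on both days. Cirbp, named after its values were seen, was called on neither. Between the controls 7 of the 9 were higher and 1 lower at day 13, beside 11.0% and 11.5% of all genes. There Hspa8 was at 2.21 (adjusted p 9.32e-08), Hsph1 at 1.91 (adjusted p 4.7e-07), Hspa1b at 3.19 (adjusted p 5.82e-06) and Dnajb1 at 1.41 (adjusted p 8.36e-05). Heat-shock genes thus moved with the day as well, Hspa1b and Hspa1a with opposite signs of the siRNA response on the 2 days, and their part in the Per1 values was not tested.

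Markers of other liver cells also moved with the groups. Their counts stand beside 23.7% of all genes called at day 13, 12.8% at day 9 and 22.5% between the controls. At day 13, 0 of 6 Kupffer cell markers rose and 5 fell after Eif3m siRNA, and they summed to 90.4 to 153 CPM in Eif3m-siRNA livers, against 196 to 260 CPM in controls. At day 9, 0 rose and 3 fell, with sums of 151 to 182 CPM in Eif3m-siRNA livers, against 227 to 276 CPM in controls. Of 5 monocyte markers tested, 1 fell at day 13, with sums of 66.0 to 81.7 CPM in Eif3m-siRNA livers, against 107 to 150 CPM in controls. At day 9, 2 rose, with sums of 106 to 121 CPM in Eif3m-siRNA livers, against 43.2 to 54.1 CPM in controls. Lyz2 made most of these sums. Its means were 66.4 CPM in day 13 Eif3m-siRNA livers against 110.7 CPM in controls, and 100.9 against 41.97 CPM at day 9. All 4 erythroid markers were higher in day 13 controls (1677 to 4024 CPM) than in day 9 controls (466 to 622 CPM), and 2 of the 4 fell after Eif3m siRNA at day 13, where all 4 summed to 464 to 1480 CPM in Eif3m-siRNA livers. Stellate cell markers were higher in day 13 controls for 4 of 6, with sums of 290 to 373 CPM against 175 to 243 CPM in day 9 controls. Hepatocyte markers summed to 96620 to 152900 CPM in day 13 Eif3m-siRNA livers, against 166600 to 188300 CPM in day 13 controls, and to 87570 to 94290 CPM in day 9 Eif3m-siRNA livers, against 110800 to 116900 CPM in day 9 controls. Of these 7 markers 2 rose (Serpina1c and Cps1) and 2 fell (Alb and Ttr) at day 13, with a median log2 fold change of -0.03, and 0 rose and 1 fell (Ttr) at day 9. Alb made most of the hepatocyte sums, with means of 98290 CPM in day 13 Eif3m-siRNA livers and 155300 CPM in day 13 controls. Of 6 endothelial markers 3 fell at day 13 and 1 rose at day 9 after Eif3m siRNA. Of 5 cholangiocyte markers 1 rose at day 13, and no neutrophil or lymphocyte marker passed the test on either day. Only the neutrophil marker Ly6g was at 0 in every library of a group, in all groups but the day 9 controls, which held 1 count. The part of these shifts in the clock values was not tested.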

How the data were processed

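Liver RNA from 12 libraries was analysed. The authors deposited whole-number expected counts per Ensembl gene, used as they stand. Per the submitters' processing notes, RSEM 1.3.0, STAR 2.5.3a and the build mm10 were used, with no role stated. The sources used here do not give the annotation, the strand setting or any filter. Symbols, positions and exon lengths came from GENCODE M21, with symbols for 50376 of 50686 identifiers. Overlapping genes and unequal depth limit the counts, and leave the precision of low genes such as Arntl set by few counts at day 13. Groups came from the labels. Counts were scaled by TMM and filtered with filterByExpr (minimum count 10), which left 14248 genes, and fitted with edgeR 4.0.16 (R 4.3.3; quasi-likelihood, robust, 4 groups, 8 residual degrees of freedom), with Benjamini-Hochberg adjustment over all genes and calls at adjusted p under 0.05. CPM is TMM-scaled, per kb of merged exon where stated. The fit was tested on simulated data. Alternatives were DESeq2 1.42.0, limma 3.58.1 (voom), other scalings and filters, thinning of day 9 counts, single-day fits, a replicate block and leaving out each library. Replicate pairs differed by more than sampling noise.

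The members and gene lists were chosen with earlier results of these data known. Named list genes are up to 4 called genes of smallest p per list at each day and between the controls. The lists were 16 other clock genes, 18 clock outputs, 14 glucocorticoid-responsive and 9 temperature-responsive genes, and markers of 9 cell types. Some genes of these lists are not reported here.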

Additional observations from a re-analysis of the deposited data

Results flagged for a closer look

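Among the 10 clock genes and the lists of other clock genes, clock outputs, glucocorticoid-responsive and temperature-responsive genes, 7 genes are given here for which the response to Eif3m siRNA differed between the days by a test of the difference itself, the effect at day 13 minus the effect at day 9 on the log2 scale, in edgeR's quasi-likelihood test. Over all genes tested 2.55% were called for this difference, cell type markers among them. Per1 differed by -2.56 (SE 0.47, adjusted p 0.0199). It was lower in 3 of 3 Eif3m-siRNA livers than in every control at day 13, and higher in 3 of 3 at day 9, as for 16.0% and 22.5% of all genes. Its call was lost with no filter (adjusted p 0.0703) and without day 13 control replicate 1 (0.0511) or replicate 3 (0.0519). Among clock outputs Cyp2a4 differed by -1.12 (adjusted p 0.0448), with 694 ± 11.1 CPM in day 13 Eif3m-siRNA livers and 1256 ± 279 CPM in day 13 controls, and 939 ± 195 CPM in day 9 Eif3m-siRNA livers and 780 ± 160 CPM in day 9 controls (SD, n = 3 each). Among glucocorticoid-responsive genes Lcn2 differed by -2.22 (adjusted p 0.0421) and Ddit4 by -1.32 (adjusted p 0.0398). Ddit4 rested on 14 to 19 counts per library in day 13 Eif3m-siRNA livers and on 30 to 34 in day 13 controls. Among heat-shock genes Hspa1b differed by -2.78 (adjusted p 0.00256), its copy Hspa1a by -3.37 (adjusted p 0.00731) and Dnajb1 by -1.14 (adjusted p 0.0246). Of these 7 genes, only Per1 had its difference followed through the alternative settings. The day 13 and day 9 libraries also differed in preparation and depth, which cannot be told apart from the day.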

How the results depend on the processing

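Counts of all genes called are given with settings that moved them by over 1.5 times, and with the range when 1 library was left out. At day 13 and between the controls, leaving out 1 library moved the count by less than 1.5 times. For the siRNA effect at day 9 the count was 1821, against 2749 with limma-voom, 1186 with day 9 counts thinned to the day 13 depth, 3412 with that day's libraries alone and 884 to 1145 when 1 library was left out. At day 13 it was 3377, against 2014 with that day's libraries alone and 2299 to 3253 when 1 library was left out, and upper-quartile scaling changed the split from 1824 higher and 1553 lower to 1574 and 1808. For the difference between the days it was 364, against 991 with DESeq2 and 130 to 508 when 1 library was left out, and upper-quartile scaling changed the split from 128 higher and 236 lower to 86 and 290. Between the controls it was 3201, and 2138 to 3437 when 1 library was left out. Of the clock genes, 0 were called at day 9, against 2 with DESeq2, 2 with limma-voom and 0 to 2 when 1 library was left out. At day 13 it was 1, and 1 to 3 when 1 library was left out. For the difference it was 1, against 2 with DESeq2, 0 with no filter and 0 to 2 when 1 library was left out. Between the controls it was 5, against 2 with no filter and 2 to 5 when 1 library was left out.

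Same-numbered samples of a day had correlations of -0.158 to 0.158, and differently numbered ones -0.143 to 0.225. These values do not show a pairing by replicate number, and they cannot exclude one. A replicate block gave 1216, 2681, 117 and 3044 genes and 0, 2, 0 and 4 clock genes for the 4 comparisons, in the order above; Clock was added at day 13 (0.58, adjusted p 0.0307), and Per1 was lost for the difference (-2.60, adjusted p 0.0723). Between the controls the block lost Arntl (adjusted p 0.061) and Per3 (0.0604) and added Clock (0.48, adjusted p 0.0384).

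Leaving out 1 library turned the sign of values that had not passed the test. At day 9 the ranges were -0.35 to 0.66 for Arntl, -0.19 to 0.0691 for Dbp (0.00694 without control replicate 1) and -0.24 to 0.0176 for Tef. At day 13 they were -0.0142 to 0.50 for Cry1 and -0.157 to 0.34 for Nr1d2. For the difference they were -0.0563 to 1.55 for Arntl, -0.74 to 0.146 for Per3, -0.40 to 0.119 for Cry1 and -0.39 to 0.0918 for Nr1d2 (0.0215 without day 13 Eif3m-siRNA replicate 1). Arntl between the controls lost its call with limma-voom (adjusted p 0.0822), thinning (0.0756) and no filter (0.117). The Arntl to Dbp ratio of day 9 controls moved to -6.50 and -5.70 with 0.5 and 2 CPM added. Over single genes and ratios, settings other than a left-out library kept direction and side of the threshold in 731 cases, lost a call in 29 and gained one in 9. They moved a ratio by its SD or more in 5. Leaving out 1 library changed nothing of this kind in 530 cases, lost a call in 53, gained one in 6 and turned the sign in 11. The cause of each shift was not tested. At day 13, Per1 after Eif3m siRNA rested on 29 to 78 counts per library and Arntl on as few as 27, which limits what these depths can show.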
